A study of Mus musculus with 6 samples.

Results

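The 6 genes described here are 4 CXC chemokine ligands (Cxcl1, Cxcl2, Cxcl3 and Cxcl12) and 2 receptors that neutrophils carry (Cxcr2 and Cxcr4). They were taken by gene symbol from the 31053 genes of the count tables, where each symbol had 1 row. CD45+ DAPI− cells were sorted from soleus muscle of male C57BL/6 mice and sequenced as single cells on the 10x Genomics Chromium platform with 3′ chemistry. Counts are unique molecular identifiers (UMIs), each standing for 1 captured transcript molecule. There were 6 libraries, and solei of several mice were pooled for each. The groups were old control, young control, old hindlimb unloading (HU), young HU, old reload and young reload. Old mice were 20–22 months and young mice 4–5 months of age, control mice walked freely, HU mice had their hindlimbs unloaded, and reload mice had 4 days of normal loading after unloading. With 1 library for each age and treatment there was no replicate within a condition, so an age difference within a treatment is a description of 2 libraries. Both control libraries belonged to 1 sequencing run and the other 4 libraries to another, and control and run cannot be told apart. The sample titles also carry a different number prefix for each treatment, so that if these mark batches of preparation, reload and HU cannot be told apart from them either.

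CXCL1, CXCL2 and CXCL3 are secreted ligands of CXCR2, a G protein-coupled receptor through which neutrophils leave the blood and move towards injured tissue. CXCL12 is the ligand of CXCR4 and is best known for holding neutrophils in the bone marrow. After muscle damage neutrophils enter early and macrophages follow, and macrophages, stromal cells and endothelium can all make CXCR2 ligands.

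The 3 CXCR2 ligand genes lie in 1 cluster on mouse chromosome 5 of the mm10 genome, all on the plus strand, and their promoters share sequence. Cxcl3 (ENSMUSG00000029379) spans chr5:90786103-90789600, Cxcl1 (ENSMUSG00000029380) chr5:90891241-90893115 and Cxcl2 (ENSMUSG00000058427) chr5:90903871-90905938, so that the cluster, which also holds the coding gene Cxcl15, covers 119.8 kb. The stretches below end shortly before the transcription start and are shown because the 3 genes carry the same pair of motifs there. They are from RefSeq on GRCm38.p6, plus strand, 5′ to 3′, with an NF-κB type motif and the letters ATAAAAGG in capitals.
Cxcl1, chr5:90891155-90891228: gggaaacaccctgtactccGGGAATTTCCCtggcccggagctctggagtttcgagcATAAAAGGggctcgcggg
Cxcl2, chr5:90903783-90903859: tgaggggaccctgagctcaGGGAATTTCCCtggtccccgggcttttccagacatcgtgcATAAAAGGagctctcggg
Cxcl3, chr5:90786009-90786089: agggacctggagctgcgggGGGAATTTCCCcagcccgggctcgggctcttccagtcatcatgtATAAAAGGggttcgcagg
NF-κB is a transcription factor of inflammatory genes. Its motif was searched as GGGA, any 2 bases and TTCC on both strands in the 250 bases before each start, and its 2 overlapping matches in each gene form 1 site, which begins 71 bases before the start in Cxcl1, 97 in Cxcl2 and 73 in Cxcl3. This motif was in 1.21% of 32851 promoters of the same length. The starts used for these distances, and for those of ATAAAAGG below, are not the ends of the gene spans given above. Measured from them, the printed stretches begin 90 bases before the start in Cxcl1, 116 in Cxcl2 and 92 in Cxcl3. Distances from the gene spans would differ, so the positions should not be compared between the genes. ATAAAAGG, chosen after the sequences were seen, lay 34, 57 and 29 bases before the start of Cxcl1, Cxcl2 and Cxcl3, and was in 1.54% of promoters. Only 9 promoters (0.0274%) held both. The AP-1 motif TGANTCA, present in 6.75% of promoters, was in none of the 6 genes, and ACGTG, present in 16.6%, was in Cxcl1 and Cxcl3. Cxcl12 (ENSMUSG00000061353, chr6:117168535-117181367, plus strand), Cxcr2 (ENSMUSG00000026180, chr1:74153989-74161246, plus strand) and Cxcr4 (ENSMUSG00000045382, chr1:128588199-128592293, minus strand) had none of these 4 motifs in their windows. The transcripts of Cxcl2 and Cxcl3 share 161 words of 31 bases, of which 0 lie in the last 300 bases where a 3′ library is read, and no other pair of the 6 genes shares any.

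Of 15467 barcodes, 12220 cells were kept, 1494 to 2568 in each library, with median depths of 2539 to 7883 UMIs per cell. Each cell was placed in a class when it carried at least 3 of 10 marker genes of that class and more of them than of any other class. None of the 6 genes is a marker. The classes were 4642 macrophages, 1344 T cells, 1339 dendritic cells, 1083 neutrophils, 921 monocytes, 527 endothelial cells, 358 B cells, 272 NK cells, 177 fibroblasts, 114 mast cells or basophils and 82 mural cells, and 1361 cells were left without a class. Neutrophils carried a median of 7 of their 10 markers, led by S100a9 and S100a8, and 0 of the macrophage markers. Cells of classes that a CD45+ sort should remove were present, unevenly: endothelial cells numbered 7 in old control and 3 in young control, 177 in old HU and 312 in young HU, and 18 in old reload and 10 in young reload. A total of 169 barcodes occurred in more than 1 library, 41 of them between the 2 control libraries.

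Cxcl2 was high in macrophages and neutrophils. Levels are given as CPM, the UMIs of the gene for each 1000000 UMIs of the class in that library, with exact 95% Poisson intervals that cover counting error only. In macrophages Cxcl2 stood at 6492 CPM in old control and 7345 in young control, 7231 in old HU and 1389.5 in young HU, and 11264 in old reload and 11042 in young reload. In neutrophils it stood at 2564 CPM in old control and 3264 in young control, 6134 in old HU and 16516 in young HU, and 2011 in old reload and 6157 in young reload. Macrophages were above neutrophils in 5 libraries and far below them in young HU, so the classes overlap. Neutrophils over macrophages, with the 6 libraries as pairs, differed by −0.20 ± 0.51 (log2, SE) with an adjusted p of 0.757 by edgeR's quasi-likelihood test. Without young HU the difference was −0.91 with an adjusted p of 0.0285.

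Most other classes had less Cxcl2 than macrophages. Monocytes had 665 CPM in old control and 1703 in young control, 2061 in old HU, and 1307 in old reload and 5504 in young reload. The difference of monocytes over macrophages was −2.28 ± 0.28 over 5 libraries (adjusted p = 6.17e-05). Young HU had only 7 monocytes and was left out of that fit. Dendritic cells were lower by −3.02 ± 0.28 (adjusted p = 8.07e-06), B cells by −3.60 ± 0.34 over 4 libraries (adjusted p = 1.16e-08) and fibroblasts by −4.46 ± 0.57 (adjusted p = 1.24e-05). T cells, a class not known as a source of it, had Cxcl2 at 87.6 to 616 CPM, a difference of −4.90 ± 0.44 (adjusted p = 1.61e-07). Mast cells or basophils had 606 Cxcl2 UMIs in 30 cells of old control (6917 CPM) and 1 to 198 UMIs in the other libraries, and their difference of −2.13 ± 0.97 over 3 libraries did not pass the test (adjusted p = 0.191).

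Cxcl2 was uneven among macrophages, most of all in young HU. The median macrophage had 11 Cxcl2 UMIs in old control and 12 in young control, 10 in old HU and 0 in young HU, and 45 in old reload and 48 in young reload. The tenth of macrophages with most Cxcl2 held 51.8% of it in old control and 52.8% in young control, 53.1% in old HU and 87.8% in young HU, and 38.6% in old reload and 39.0% in young reload. The highest single cell, an old reload macrophage, had 888. In young HU the median neutrophil had 14, against 0 in old reload and 2 to 4 in the other 4 libraries.

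**Figure D1:**
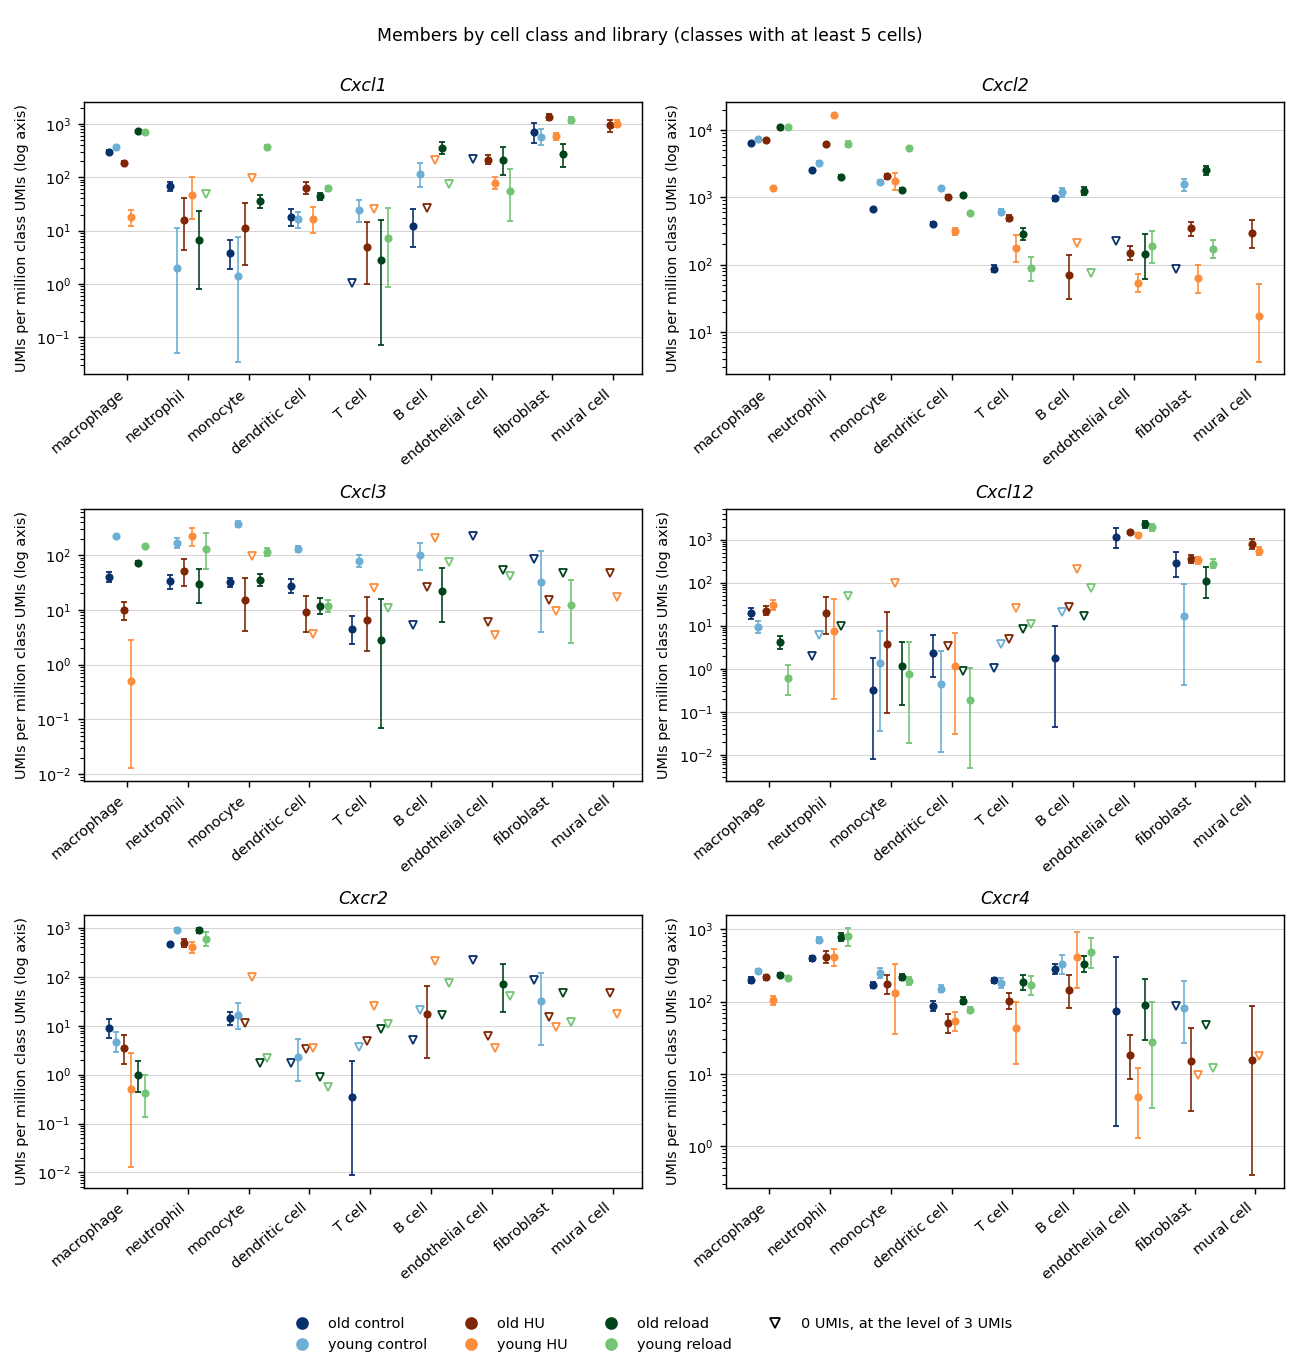
Each panel plots 1 gene, with its level in CPM on a log axis for each cell class and library, as points with exact 95% Poisson intervals. Open triangles mark libraries with 0 UMIs at the level that 3 UMIs would give, and classes with under 5 cells in a library are left out. Cxcr2 stands between 405 and 909 in neutrophils, and the highest value in any other class shown is 71.3, from 4 UMIs. Cxcl12 is highest in endothelial cells, and Cxcl2 is high in macrophages and neutrophils. NK cells and mast cells or basophils are not shown.

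Cxcl1, unlike Cxcl2, was nearly absent from neutrophils and high in stromal classes. Macrophages had 298 CPM in old control and 365 in young control, 181 in old HU and 17.6 in young HU, and 728 in old reload and 692 in young reload. Neutrophils had 102 Cxcl1 UMIs in old control, 50 of them in 1 cell, and 0 to 6 UMIs in each of the other 5 libraries. Neutrophils over macrophages gave −3.30 ± 0.70 (adjusted p = 0.000786), a difference of the same sign in every setting tried. Fibroblasts, at 266 to 1340 CPM, exceeded macrophages in 5 of 6 libraries, and the difference of 1.14 ± 0.62 did not pass the test (adjusted p = 0.169). In the 23 old HU and 55 young HU mural cells, the contractile cells around small vessels, Cxcl1 stood at 932 and 1002 CPM.

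The Cxcl1 of monocytes, dendritic cells and T cells was low next to that of macrophages. The differences were −4.01 ± 0.68 in monocytes (adjusted p = 0.000682), −3.19 ± 0.45 in dendritic cells (adjusted p = 0.000166) and −6.07 ± 0.51 in T cells (adjusted p = 8.20e-08). Monocytes of young reload were the exception, with 365 CPM, against 35.4 in old reload and 1.39 to 11.2 in old control, young control and old HU. Like Cxcl2 it was uneven among macrophages: the tenth with most Cxcl1 held 71.4 to 100% of it.

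Cxcl3 was scarcer and more evenly shared among myeloid classes. It stood at 0.503 to 219 CPM in macrophages, 29.4 to 222 in neutrophils and 15.0 to 374 in the 5 libraries with at least 20 monocytes. The neutrophil difference from macrophages was 1.14 ± 0.66 (adjusted p = 0.156, but 1.41 and 0.0290 without old reload) and that of monocytes −0.15 ± 0.24 (adjusted p = 0.664, but −0.50 and 0.0480 without young control). Dendritic cells were lower (−1.63 ± 0.44, adjusted p = 0.00969, but 0.0527 without old reload), and so were T cells (−2.56 ± 0.41, adjusted p = 7.29e-05), B cells (−2.16 ± 0.43, adjusted p = 0.000285) and fibroblasts (−3.83 ± 0.47, adjusted p = 7.19e-06).

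Cxcl12 was a transcript of endothelial and stromal cells. Endothelial cells had 1119 CPM in old control and 5136 in young control, 1467 in old HU and 1306 in young HU, and 2282 in old reload and 1915.5 in young reload. The 2 control values rest on 15 and 55 UMIs from 7 and 3 cells. Macrophages were at 0.597 to 30.2 CPM, below the lowest endothelial value in every library. Over the 5 libraries with at least 5 endothelial cells, a limit chosen after the data were seen and also used for fibroblasts, the difference was 6.76 ± 0.43 (adjusted p = 2.72e-53). That p-value leans on a spread estimated over all genes tested and does not measure the spread of the 5 libraries alone. Fibroblasts, at 16.4 to 356 CPM, exceeded macrophages by 4.11 ± 0.62 (adjusted p = 6.65e-05) and lay below endothelial cells by −2.48 ± 0.34 (adjusted p = 4.27e-05). Mural cells had 792 CPM in old HU and 554 in young HU. T cells had 0 Cxcl12 UMIs in all 6 libraries.

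Macrophages carried a little Cxcl12, and more of it in cells with resident genes. Macrophages with at least 2 of 8 resident genes, such as Lyve1 and Folr2, had 25.9 CPM in old control and 12.5 in young control, 25.2 in old HU and 39.1 in young HU, and 7.90 in old reload and 0.659 in young reload. The other macrophages had 3.04 and 5.26, 14.1 and 5.68, and 1.19 and 0.530 CPM in the same order. Resident macrophages were higher in all 6 libraries, by 1.71 ± 0.30 (adjusted p = 0.00145). Endothelial markers summed to 26.8, 36.9, 68.3, 95.6, 32.1 and 22.3 CPM in all macrophages in the library order used above, with 6 to 9 of 10 detected, and their part in this was not tested. Neutrophils had Cxcl12 in 2 cells only, and their difference from macrophages of −2.13 ± 0.73 (adjusted p = 0.0219) was not called without young control (adjusted p = 0.0538) or with classes set by cluster (adjusted p = 0.0592).

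The same split ran the other way for Cxcl2. Resident macrophages had 5380 CPM in old control and 5409 in young control, 5961 in old HU and 784 in young HU, and 10266 in old reload and 11418 in young reload. Other macrophages had 9292 and 10157, 11082 and 3062, and 12065 and 10640 CPM in the same order. Resident cells were lower in 5 libraries and higher in young reload, with a difference of −0.87 ± 0.19 (adjusted p = 0.00662). For Cxcl1 it was −0.61 ± 0.19 (adjusted p = 0.0495), a call that was lost when any 1 of old control, young control, old HU and young HU was left out (adjusted p of 0.0579 to 0.149). Of the 5 genes tested, 3 were called, against 12% of all genes tested.

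Cxcr2 was a transcript of neutrophils. Neutrophils had 463 CPM in old control and 903 in young control, 491 in old HU and 405 in young HU, and 909 in old reload and 604 in young reload. Macrophages had 0.426 to 9.06 CPM and no library of them overlapped with neutrophils. The difference was 8.55 ± 0.54 (adjusted p = 3.43e-10) and lay between 7.88 and 8.98 in every setting tried. T cells had 1 Cxcr2 UMI in all. Monocytes had 46 Cxcr2 UMIs in old control and 12 in young control and 0 in the other 4 libraries, and 4 UMIs in 18 endothelial cells of old reload gave 71.3 CPM. Macrophage Cxcr2 was highest in old control, where neutrophil markers in macrophages also summed highest, to 2821 CPM, against 66.9 to 698 CPM in the other libraries. The part of that RNA was not tested.

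Cxcr4 was present in all the leukocyte classes tested, and higher in neutrophils than in macrophages. Neutrophils had 398 CPM in old control and 716 in young control, 413 in old HU and 413 in young HU, and 775 in old reload and 800.2 in young reload. In macrophages Cxcr4 stood at 104 to 266 CPM, lower than in neutrophils in every library. The difference was 1.96 ± 0.24 (adjusted p = 1.70e-06). Monocytes (−0.19 ± 0.12, adjusted p = 0.224) and B cells (0.10 ± 0.22, adjusted p = 0.755) did not pass the test against macrophages. T cells were lower by −0.59 ± 0.17 (adjusted p = 0.00733), dendritic cells by −1.13 ± 0.15 (adjusted p = 8.15e-05), fibroblasts by −4.60 ± 0.56 (adjusted p = 6.39e-06) and endothelial cells by −3.50 ± 0.43 (adjusted p = 8.53e-15).

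Against macrophages, 4 of 6 genes were called in neutrophils, where 50.1% of all genes tested were, 2 of 4 in monocytes (36.7%), and 4 of 4 in dendritic cells (48.5%) and in T cells (55.4%). In B cells 3 of 4 were called (39.5%), in endothelial cells 4 of 4 (34.1%) and in fibroblasts 4 of 5 (37.9%), and between fibroblasts and endothelial cells 2 of 3 (38.4%). With 34.1 to 55.4% of all genes called in these contrasts, the counts say little about the 6 genes, and the sizes carry the description. In the neutrophil contrast the calls were 1826 higher and 2004 lower, and 1305 higher and 3362 lower with DESeq2 size factors, which moved the median of all genes from −0.22 to −0.67. With those factors Cxcl2 stood at −0.64 and Cxcl3 at 0.70 on the log2 scale, without a change of sign.

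Both receptors and Cxcl2 were found in a larger share of neutrophils than of T cells. After every cell was thinned to 1000 UMIs, 416 of 832 neutrophils had a Cxcr2 UMI, against 0.0775% of 1290 T cells. Unthinned, the shares were 63.5% and 0.0744%. The shares pool all libraries, and the neutrophil interval, 46.55% to 53.45% (exact 95% binomial), does not cover the spread between them. Thinned neutrophils with a Cxcr2 UMI numbered 145 of 296 in old control and 109 of 191 in young control. In HU they numbered 32 of 98 in the old and 22 of 53 in the young library. In reload they numbered 87 of 164 in the old and 21 of 30 in the young library. For Cxcr4 the thinned shares were 40.75% of neutrophils and 15.7% of T cells (57.5% and 37.0% unthinned). For Cxcl2 they were 62.6% of neutrophils and 6.12% of T cells (71.4% and 9.90% unthinned). Thinning left out 251 neutrophils and 54 T cells, whose classes had unthinned median depths of 1479 and 3356 UMIs.

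The class that held the UMIs of a gene depends on its level and on how many cells of that class the sort recovered. Macrophages held 72.4% ± 17.7 of the Cxcl2 UMIs of a library (SD, n = 6), between 46.8% in young HU and 90.6% in old reload, and neutrophils held 10.3% ± 13.9, between 0.256% in young reload and 36.6% in young HU. For Cxcl1 the macrophage share was 64.45% ± 33.0, and in young HU macrophages held 6.35%, fibroblasts 33.8% and mural cells 31.2%. For Cxcl3 it was 45.4% ± 31.5, and in young HU neutrophils held 29 of 30 UMIs. Endothelial cells held 58.7% ± 22.2 of Cxcl12, between 79.4% in young HU and 18.1% in old control, where macrophages held 54.2% (45 of 83 UMIs). Neutrophils held 88.9% ± 5.18 of Cxcr2. Cxcr4 UMIs were 52.2% ± 20.4 in macrophages and 11.3% ± 6.50 in neutrophils, and in old control macrophages held 15.2% and neutrophils 19.8%.

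**Figure D2:**
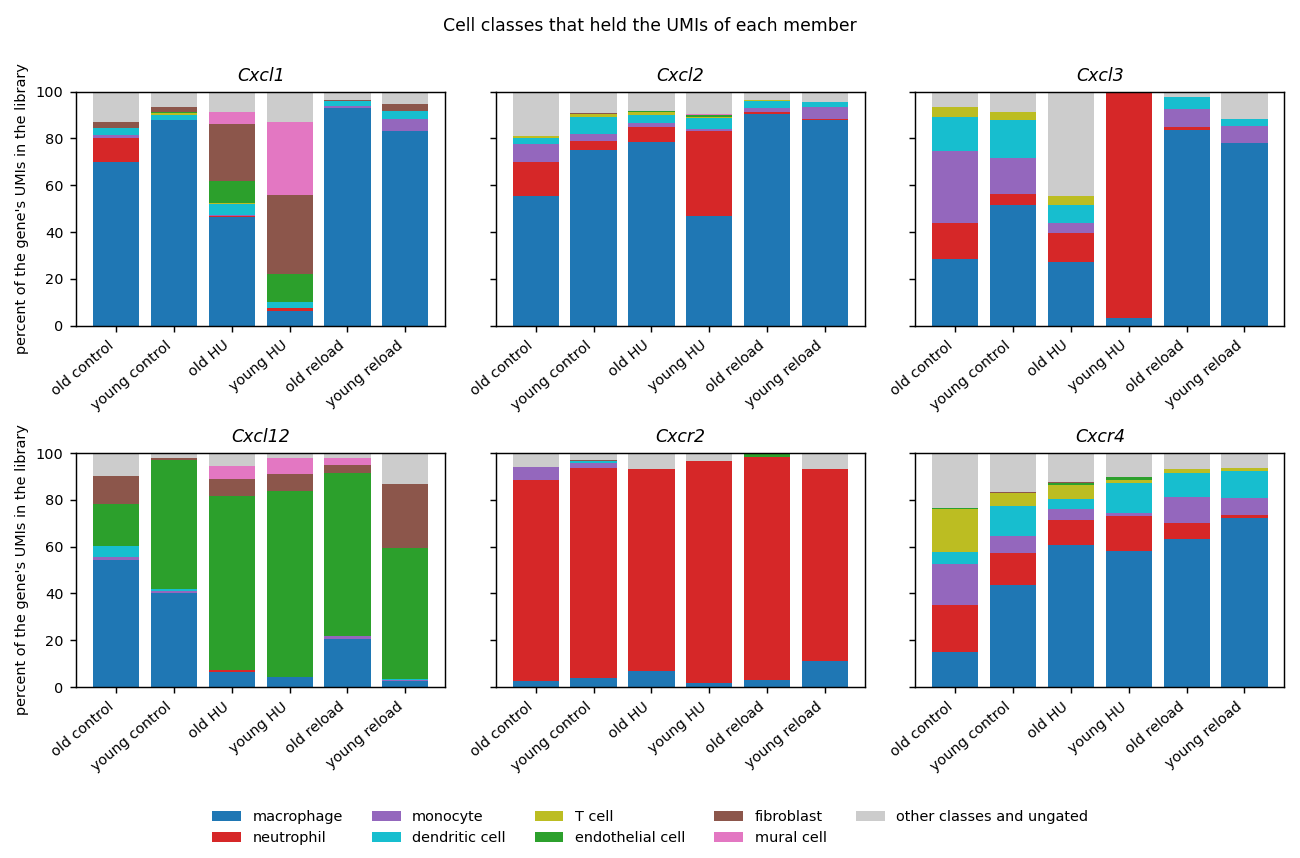
Stacked bars give, for each gene and library, the percent of the gene's UMIs that lay in each cell class, with other classes and cells without a class in grey. Macrophages hold 93.1% of Cxcl1 in old reload and 6.35% in young HU, where neutrophils hold 36.6% of Cxcl2, and neutrophils hold 82.2 to 95.2% of Cxcr2 in all 6 libraries.

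Among macrophages, young HU stood apart from the other 5 libraries for the 3 CXCR2 ligands. Old over young in HU was 3.36 (2.87 to 3.90) for Cxcl1 and 2.38 (2.32 to 2.44) for Cxcl2 on the log2 scale. For Cxcl3 it was 4.28 (1.69 to 9.64), from 28 UMIs in old HU and 1 in young HU. In control the same ratios were −0.29 (−0.42 to −0.16), −0.18 and −2.43. In reload they were 0.07 (0.03 to 0.12), 0.03 (0.02 to 0.04) and −1.001. Old macrophages thus had 0.816 times the Cxcl1 of young macrophages in control and 1.05 times in reload, and Cxcl3 was lower in the old libraries of both treatments. Cxcl2 was also lower in young HU within both kinds of macrophage, with old over young at 2.93 in resident and 1.86 in other macrophages, and Cxcl1 at 2.68 and 4.49.

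Across the 3 treatments, none of the 6 genes passed the test for age in macrophages. The fitted age differences were 0.85 ± 0.74 for Cxcl1, 0.71 ± 0.55 for Cxcl2, −0.97 ± 0.81 for Cxcl3, 0.85 ± 0.50 for Cxcl12, 1.23 ± 0.44 for Cxcr2 and 0.27 ± 0.33 for Cxcr4, with adjusted p values of 0.914 to 0.920. In this fit 0 of 9503 genes were called (0%), 375 had an unadjusted p under 0.05, and DESeq2 called 5 genes. The fit takes the age difference as equal in the 3 treatments and leaves 2 residual degrees of freedom.

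Reload macrophages had more of the CXCR2 ligands than HU macrophages at both ages, and the sizes differed with age. Reload over HU was 2.005 in old and 5.30 in young libraries for Cxcl1, 0.64 and 2.99 for Cxcl2, and 2.87 and 8.16 for Cxcl3. Over both ages the differences did not pass the test, with 3.15 ± 0.91 for Cxcl1 (adjusted p = 0.0858), 1.62 ± 0.67 for Cxcl2 (adjusted p = 0.169) and 3.97 ± 1.06 for Cxcl3 (adjusted p = 0.0726). Without old HU, which left young HU as the only HU library, they were 5.50, 3.16 and 8.57, close to the young ratios above. Cxcr4 differed by 0.54 ± 0.39 (adjusted p = 0.393) and Cxcr2 by −1.50 ± 0.64 (adjusted p = 0.176).

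Macrophage Cxcl12 fell with reload. There were 38 UMIs in old reload, against 64 in old HU, and 7 in young reload, against 60 in young HU, with fewer macrophages in HU. The levels were 4.17 CPM in old reload, against 22.4 in old HU, and 0.597 in young reload, against 30.2 in young HU. The HU and reload libraries did not overlap, and the difference was −3.65 ± 0.63 (adjusted p = 0.0363), the 1 call among 6 genes, against 6.62% of all genes tested. The call was lost without young control (adjusted p = 0.0750), without young HU (0.0922), without young reload (0.0954) and with HU and reload libraries alone (0.0582). In the same fit 6 of 8 resident macrophage genes were lower in reload, among them Lyve1 (−2.80 ± 0.40, adjusted p = 0.0316) and Cd163 (−2.39 ± 0.36, adjusted p = 0.0337), and 0 were higher. The median of the list was −2.77, beside 0.02 over all genes tested. Reload over HU of Cxcl12 was −1.67 in old and −5.89 in young libraries within resident macrophages. Within other macrophages it was −3.57 and −3.42, from 3 to 10 UMIs in each library. The endothelial marker sums of macrophages given above were also lower in reload than in HU at both ages. The part of resident cells or of endothelial RNA in the fall of Cxcl12 was not tested.

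**Figure D3:**
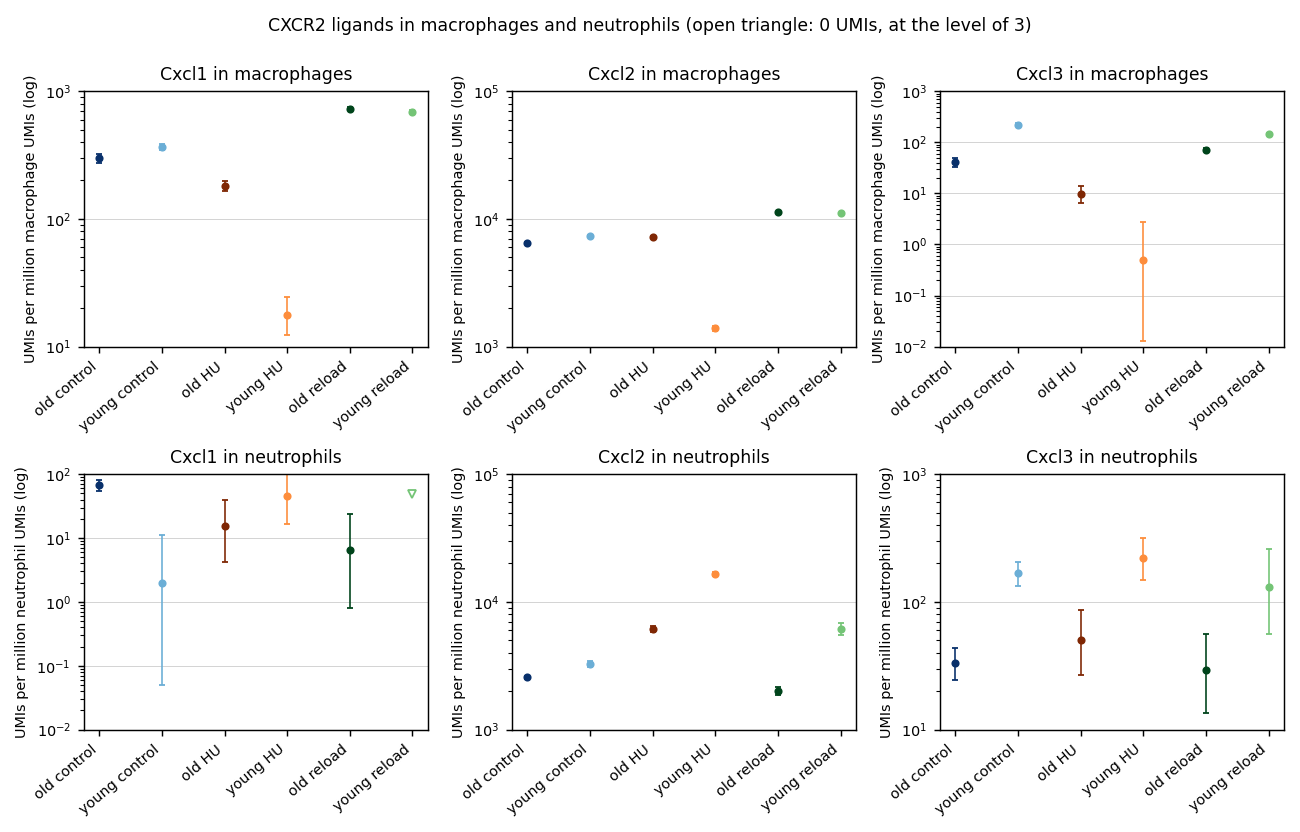
The panels plot Cxcl1, Cxcl2 and Cxcl3 in macrophages (top) and neutrophils (bottom), in CPM on a log axis, 1 point for each library with its exact 95% Poisson interval and an open triangle for 0 UMIs. Young HU has the lowest macrophage level of all 3 genes and the highest neutrophil level of Cxcl2, and neutrophil Cxcl3 is lower in the old library of each treatment.

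In neutrophils Cxcl3 was lower in old than in young mice. Old control neutrophils had 33.1 CPM (50 UMIs), against 167 in young control (83 UMIs). Old HU neutrophils had 50.7 CPM (13 UMIs), against 222 in young HU (29 UMIs). Old reload neutrophils had 29.4 CPM (9 UMIs), against 131 in young reload (8 UMIs). All 3 old libraries lay below all 3 young libraries. Old over young was −2.33 (−2.87 to −1.81) in control, −2.13 (−3.20 to −1.14) in HU and −2.15 (−3.70 to −0.58) in reload. Few cells held these UMIs: the tenth of neutrophils with most Cxcl3 had 87.95 to 100% of it. The highest single cell had 11 UMIs in old control and 12 in young control. It had 2 in old HU and 13 in young HU, and 5 in both old and young reload. The intervals take UMIs as independent and do not cover this unevenness.

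The fitted age difference of Cxcl3 was −2.28 ± 0.35 (adjusted p = 0.0172). It was the 1 call among the 4 genes tested, against 0.192% of all genes tested. Cxcl3 stayed called when each library was left out in turn, and was not called at a mitochondrial limit of 5% (−1.97, adjusted p = 0.0782) or with a gate of 4 markers (−2.03, adjusted p = 0.0574). Cxcl2 was lower in old neutrophils in every treatment too, by −0.35 in control, −1.43 in HU and −1.61 in reload, with −1.18 ± 0.32 over the 3 treatments (adjusted p = 0.262). Within HU and reload alone that difference was −1.57 (adjusted p = 0.0111). Cxcr2 (−0.12 ± 0.33, adjusted p = 0.991) and Cxcr4 (−0.37 ± 0.28, adjusted p = 0.904) did not pass the test for age.

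Cxcl2 fell with reload in neutrophils, while its level in macrophages was higher in reload than in HU. Old reload neutrophils had 2011 CPM, against 6134 in old HU, and young reload neutrophils 6157 CPM, against 16516 in young HU. Each age had less in reload, although young reload and old HU were alike. The difference was −1.84 ± 0.39 (adjusted p = 0.0271), the 1 call among 4 genes, against 1.99% of all genes tested. It was lost without old reload (adjusted p = 0.442), young HU (0.0697) or young reload (0.112), without doublet removal (0.139) and without barcodes that occurred in several libraries (0.0621). Immediate early and heat shock genes, known to respond to tissue dissociation, summed in neutrophils to 4486 CPM in old control and 5485 in young control, 9717 in old HU and 16447 in young HU, and 6118 in old reload and 6990 in young reload. The 10 macrophage markers summed to 376 to 3120 CPM in neutrophils, with 3120 in old HU and 520 in young HU. The part of either list in the Cxcl2 values was not tested.

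The levels of the 2 receptors in neutrophils differed alike between ages in control and less so in reload. Old over young was −0.96 (−1.14 to −0.79) for Cxcr2 and −0.85 for Cxcr4 in control. In HU it was 0.28 (−0.20 to 0.77) and 0.00, and in reload 0.59 (0.09 to 1.13) and −0.05. Reload over HU was 0.89 in old and 0.58 in young libraries for Cxcr2 and 0.91 and 0.95 for Cxcr4, and neither passed the test (0.50 ± 0.40, adjusted p = 0.623, and 0.64 ± 0.35, adjusted p = 0.433). Both UMIs were found in 419 of 1083 neutrophils, Cxcr2 alone in 269, Cxcr4 alone in 204 and neither in 191. A Cxcr4 UMI was in 60.9% of the cells with Cxcr2 and in 51.6% of the others unthinned, and in 43.0% and 38.5% after thinning, so the receptors were not held by separate cells. Within libraries the thinned shares were 38.6% and 38.4% in old control, 53.2% and 43.9% in young control, 31.2% and 30.3% in old HU, 22.7% and 22.6% in young HU, 47.1% and 46.8% in old reload and 42.9% and 33.3% in young reload. Cxcr4 made up 46.2% of the UMIs of both receptors in old control and 44.2% in young control, 45.7% in old HU and 50.5% in young HU, and 46.0% in old reload and 57.0% in young reload. The interval of young reload (45.9 to 67.6) overlaps those of the other 5 libraries. After thinning this share was 45.2% in old control and 43.55% in young control, 43.2% in old HU and 37.5% in young HU, and 46.1% in old reload and 37.8% in young reload, so that the young HU and young reload values were the highest unthinned and the lowest thinned.

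Neutrophils that carried genes of an immature neutrophil list, here called granule genes, had less Cxcl2 and Cxcr4 than other neutrophils. These calls rest on old control, and Cxcr2 did not pass the test. Cells with at least 3 of 8 such genes (Camp, Ngp, Ltf, Lcn2 and others) numbered 75 in old control and 5 in young control, 11 in old HU and 21 in young HU, and 4 in old reload and 0 in young reload. Their Cxcl2 was 1515 CPM in old control, 577 in young control, 3423 in old HU, 7825 in young HU and 525 in old reload, against 3499, 3371.5, 6361, 20877 and 2079 CPM in the other neutrophils. The difference over 4 libraries was −1.25 ± 0.25 (adjusted p = 0.0121). For Cxcr4 it was −1.19 ± 0.27 (adjusted p = 0.0295) and for Cxcr2 −0.63 ± 0.27 (adjusted p = 0.375). The CPM of all 3 genes were lower in the granule-gene cells of all 5 libraries that had such cells. Of the 3 genes tested, 2 were called, against 1.72% of all genes tested. Without old control, which held most of these cells, neither Cxcl2 (0.0764) nor Cxcr4 (0.160) was called, and Cxcr4 was also lost without young HU (0.0818). The subset was defined after the data were seen. Camp was absent from the neutrophils of young control and old reload, so the cells there were placed by other genes of the list. Of these, Chil3 is also a monocyte marker. Whether the subset holds the same kind of cell in each library was not tested.

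The neutrophil share was lower in young than in old reload, while Cxcl1 and Cxcl2 outside neutrophils stood at similar levels at both ages. Neutrophils made up 12.5% (11.3 to 13.9) of kept cells in old control and 14.4% (12.7 to 16.2) in young control. They made up 10.7% (9.30 to 12.2) in old HU and 6.22% (5.05 to 7.57) in young HU, and 8.20% (7.13 to 9.38) in old reload and 2.04% (1.51 to 2.69) in young reload. In all cells but neutrophils Cxcl2 stood at 1759 CPM in old control and 4026 in young control, 3900.2 in old HU and 772 in young HU, and 7204 in old reload and 7288 in young reload. The old share was thus the higher one both in HU, where old Cxcl2 was higher, and in reload, where the levels were close. In reload Cxcl1 outside neutrophils was 455 CPM in old and 485 in young cells, and Cxcl3 was 49.4 in old and 107 in young cells. In control the old library had the lower ligand level and a share whose interval overlaps that of the young library.

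Barcodes with over 10% mitochondrial UMIs, which were left out, made up 9.46% in old control and 4.12% in young control, 9.60% in old HU and 27.5% in young HU, and 17.4% in old reload and 33.3% in young reload. The 2 libraries with the lowest neutrophil shares had the highest such values, and their part in the shares was not tested. With 1 library for each condition the share has no replicate, and no relation between share and ligand across the 6 libraries was tested.

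**Figure D4:**
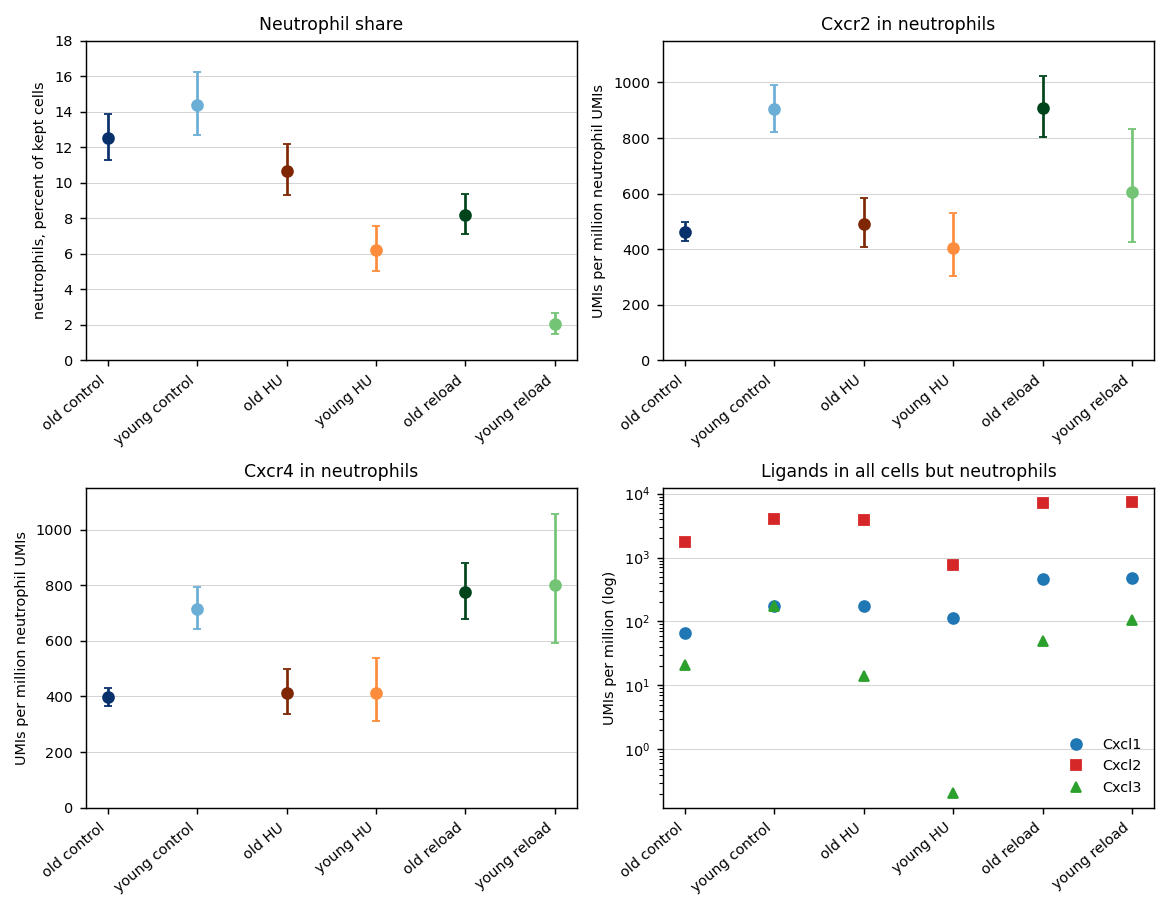
The panels plot, for each library, the neutrophil share of kept cells with its exact 95% binomial interval, Cxcr2 and Cxcr4 in neutrophils in CPM with exact 95% Poisson intervals, and Cxcl1, Cxcl2 and Cxcl3 in all cells but neutrophils in CPM on a log axis. The neutrophil share is 8.20% in old reload and 2.04% in young reload, while Cxcl2 outside neutrophils is 7204 and 7288.

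Summed over all kept cells, Cxcr2 was lowest in young reload, which had the fewest neutrophils. It stood at 55.4 CPM in old control and 48.7 in young control, 22.2 in old HU and 11.2 in young HU, and 18.3 in old reload and 2.23 in young reload. In such a sum fewer cells of a type and less RNA per cell cannot be told apart. Old over young in reload was 3.04 (2.58 to 3.52) on the log2 scale over all cells and 0.59 within neutrophils. For Cxcl2 over all cells the same ratio was −0.04.

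Cxcl12 summed over all cells was highest in the HU libraries, which had the most endothelial cells. It was 5.64 CPM in old control and 9.70 in young control, 147 in old HU and 281 in young HU, and 11.5 in old reload and 12.4 in young reload. Reload fell below HU by 3.94 (SE 0.26, adjusted p = 0.00431), the 1 call among 6 genes, against 18.6% of all genes tested, and it stayed called in every setting. Within endothelial cells the direction was the opposite, with reload over HU at 0.64 (0.36 to 0.91) in old and 0.55 (0.29 to 0.81) in young libraries. Endothelial cells were 18 in old reload, against 177 in old HU, and 10 in young reload, against 312 in young HU. At a mitochondrial limit of 5% the young ratio was −0.38. Age called none of the 6 genes over all cells (0% of all genes; 934 at an unadjusted p under 0.05, 117 called by DESeq2), in dendritic cells (0%; 266 and 0) or in T cells (0%; 245 and 1). Reload over HU called none of those tested in dendritic cells (1.56% of all genes) or T cells (0.286%).

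The other genes of the pathway were counted in lists, to be read against the 50.1% of all 7647 genes tested that were called in neutrophils over macrophages, 1826 of them higher and 2004 lower. In neutrophils over macrophages, 8 of 8 tested receptors and enzymes for other attractants were higher, among them Fpr1, a receptor for bacterial peptides (7.59 ± 0.45, adjusted p = 2.27e-10), and Ccr1 (3.42 ± 0.33, adjusted p = 6.72e-08). Alox5ap, of leukotriene synthesis, was higher by 1.56 ± 0.23 (adjusted p = 2.29e-05) and C5ar1, the receptor of complement C5a, by 1.41 ± 0.25 (adjusted p = 0.000138). All 4 tested genes of the growth factor and IL-17 list were higher, such as Csf2rb (2.08 ± 0.24, adjusted p = 7.70e-07). That list holds Csf3r, which is also a marker that placed cells in the neutrophil class, so its higher level there followed from the placing. Of 5 other CXC genes tested, Cxcr1 was higher (7.73 ± 0.68, adjusted p = 2.21e-08) and 4 were lower, among them Cxcl16 (−3.20 ± 0.34, adjusted p = 2.74e-07) and Pf4 (−3.67 ± 0.54, adjusted p = 1.80e-05). Il1b, a cytokine that induces CXCR2 ligands, was higher by 3.11 ± 0.62 (adjusted p = 0.000406), and Tnf, another, was lower by −1.45 ± 0.37 (adjusted p = 0.00331). Il1b of young HU macrophages was low with the ligands, at 18.1 CPM, against 590 in old HU, and Tnf at 123 CPM, against 564.1 in old HU.

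Reload over HU called few of these genes in macrophages, where 6.62% of all 9503 genes tested were called, 298 higher and 331 lower. With 2 residual degrees of freedom in this fit, a gene without a call is not shown to be unchanged. Cxcl16 rose by 1.25 ± 0.22 (adjusted p = 0.0379) and Pf4 fell (−1.87 ± 0.25, adjusted p = 0.0303), the 2 calls among 7 other CXC genes. Ccr1 rose by 2.08 ± 0.32 (adjusted p = 0.0338), 1 of 7 in its list, and Il17ra by 1.36 ± 0.27 (adjusted p = 0.0443), 1 of 5. None of the 9 upstream cytokine genes and none of the 8 genes of NF-κB and chemokine mRNA control was called, with list medians of 1.27 and 0.93 beside 0.02 over all genes. Among immediate early and heat shock genes 3 of 10 fell: Jun (−1.74 ± 0.21, adjusted p = 0.0278), Ier2 (−2.28 ± 0.32, adjusted p = 0.0316) and Egr1 (−1.32 ± 0.20, adjusted p = 0.0337). The granule gene Lcn2 fell by 4.38 (SE 0.81, adjusted p = 0.0403), from at most 15 UMIs in any HU or reload library.

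In neutrophils the same comparison called Jun (−2.08 ± 0.37, adjusted p = 0.00925) and Hspa1a (−5.38 ± 0.78, adjusted p = 0.00534), both lower in reload. It also called Pf4 (−4.68 ± 0.99, adjusted p = 0.0271), Cd163 (−4.19 ± 0.94, adjusted p = 0.0371) and Lyve1 (−5.16 ± 1.16, adjusted p = 0.0371), which are macrophage genes, and macrophage markers in neutrophils were highest in old HU, as given above. Camp (−13.12, adjusted p = 0.000776) and Ngp (−8.82, adjusted p = 0.00296) were lower as well, and Camp had 0 UMIs in both reload libraries, so its fitted value is no bound. For age, Camp was higher in old neutrophils (6.58 ± 0.65, adjusted p = 0.000435), with 927 UMIs in old control and 613 in old HU, against 0 in young control and 6 in young HU. Hspa1a was lower (−3.02 ± 0.51, adjusted p = 0.0332). Without the granule-gene cells the age difference of Cxcl3 was −2.32 (adjusted p = 0.0117).

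Over 44 sums of at least 20 cells by class and library, the genes most like each of the 6 were named by Pearson r of log2(CPM + 10) among 9777 genes. The sums share libraries and depth, and r is a description. Cxcl2 was most like Marcksl1 (r = 0.878), the inflammasome gene Nlrp3 (0.867) and C5ar1 (0.865), and Cxcl3 like 9130230L23Rik (0.834), Slc15a3 (0.802) and the receptor gene Tlr2 (0.775). Cxcl1 was most like Mmp14 (0.829), Sash1 (0.801) and Itgb5 (0.780). Cxcl12 was most like Cavin3 (0.981), Pls3 (0.976) and Fermt2 (0.976), and Cxcr2 like 9830107B12Rik (0.977), the interleukin gene Il1f9 (0.977) and AC110211.1 (0.974). Cxcr4 was most like Ptk2b (0.886), Tnfrsf1b (0.884) and Gmip (0.882). Among the 6 genes the highest r was between Cxcl2 and Cxcl3 (0.673), while Cxcl1 was closer to Cxcl12 (0.581) than to Cxcl2 (0.167).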

How the data were processed

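The authors made the deposited counts of UMIs per gene and barcode with Cell Ranger 3.1.0 on mm10, as the submitters' processing notes name them, and these whole numbers had not been scaled. Every deposited barcode had at least 500 UMIs. Solei were pooled by group and sorted for CD45+ DAPI− cells, so p-values refer to the spread between pooled libraries and not between mice. A fit used 3 to 6 libraries, and edgeR also draws on the spread over all genes tested.

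Here, a cell was kept if it had 200 or more genes and no more than 10% of its UMIs were mitochondrial, and doublets were marked by scrublet rank at 0.8% per 1000 barcodes (340 marked) in scanpy 1.11.5. Each cell took the class with the largest share of its 10 markers detected, with at least 3 and a margin of 0.1. The 6 genes and the lists were chosen with earlier results of these data known. UMIs were summed by class and library and tested with edgeR 4.0.16 (quasi-likelihood, TMM, filterByExpr) with Benjamini-Hochberg adjustment over all genes tested and a threshold of 0.05. Class contrasts had the library as block, used the libraries with at least 20 cells of both classes, and needed 3. Age and reload over HU came from 1 fit on 6 sums with treatment and age as terms. Control against the other treatments was not tested. Differences are log2 values with standard errors. For edgeR these errors were derived as the absolute log2 difference over the square root of the F statistic of the test. A ratio within a treatment or age is log2 with an exact 95% interval. A count of 0 allows up to 3 counts.

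Genes named beside the 6 are those past the test for age or reload in macrophages or neutrophils (up to 3 for each list and fit), the genes with most UMIs in a list, and the 3 most alike. Fpr1 and Cxcr1 were chosen after their values were seen. Alternatives were mitochondrial limits of 5% and 20%, no doublet removal, a gate of 4 markers, classes by Seurat 5.3.0 cluster (made without the 6 genes), DESeq2 1.42.0 and its size factors, no filter, and leaving out each library or both control libraries. Cells with shared barcodes left out, the limit of 5 cells, the resident macrophages and the granule-gene neutrophils were added after the data were seen. The fit was also run on simulated counts, for neutrophils over macrophages and for age in macrophages only. Apart from the planted changes, each gene had the same expected share in every simulated sum. The simulation therefore does not test the fit on libraries as unlike as these. Gene positions are from GENCODE vM21 on mm10, which matched 99.9% of gene IDs, and R 4.3.3 and Python 3.11.15 were used.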

Additional observations from a re-analysis of the deposited data

Results flagged for a closer look

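Some age differences did not have the same size or direction in the 3 treatments. With 1 library for each age and treatment, none of these differences between treatments was tested, and control cannot be told apart from its sequencing run. The titles give each treatment its own number prefix, so HU and reload cannot be told apart from any batch this marks.

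In macrophages, the old over young log2 ratio in HU minus that in control was 3.66 for Cxcl1, 2.56 for Cxcl2, 6.72 for Cxcl3 and 1.47 for Cxcr4, old being the higher age in HU and the lower in control for each of the 4 genes. The Cxcl3 value rests on 1 UMI in young HU macrophages. The old over young ratio in reload minus that in control was 0.37 for Cxcl1, 0.21 for Cxcl2 and 0.55 for Cxcr4. For Cxcl3, reload minus HU was −5.29.

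In neutrophils, the old over young ratio of Cxcr2 in reload minus that in control was 1.55, with old above young in reload (37 UMIs in young reload) and below it in control.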

How the results depend on the processing

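Of the fitted log2 differences of single genes under the alternatives, 1034 kept their side of the threshold, 33 became called and 21 were no longer called. None changed sign where either fit called the gene. Changes of sign between fits that both left the gene uncalled are counted among the 1034. Alternatives in which a gene was not tested are not counted. The ratios between 2 libraries kept their size within counting error in 552 cases, moved in 44 and reversed in 2: Cxcl2 in macrophages, old over young in reload, was −0.0108 with classes by cluster, and Cxcl12 in endothelial cells, reload over HU in young, was −0.38 at a mitochondrial limit of 5%.

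Shares of neutrophils with a UMI depended on depth. Cxcl2 was at 71.4% unthinned and 67.2% thinned to 2000 UMIs, Cxcr2 at 63.5% and 61.7%, and 53.8% with classes by cluster, and Cxcr4 at 57.5% and 54.8%.

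Counts of called genes moved as follows, and the causes were not tested. Monocytes over macrophages had 4 with classes by cluster. Reload over HU in macrophages had 4 without a filter, 0 without the control libraries and 0 to 5 with a library left out. Age in neutrophils had 2 without the control libraries, 0 at a limit of 5% and with a gate of 4 markers, and 1 to 2 with a library left out. Reload over HU in neutrophils had 0 without doublet removal and without shared barcodes, and 0 to 2 with a library left out. The granule-gene contrast had 0 to 2 with a library left out. Age had 1 in dendritic cells without the control libraries and, in T cells, 2 without a filter and 0 to 1 with a library left out, as had reload over HU in T cells. Reload over HU in all cells had 3 without a filter, with DESeq2 and without the control libraries, and 1 to 5 with a library left out.

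Libraries could not be paired by replicate number because each age and treatment had 1 library. The class contrasts were blocked by library instead, and the age fit by treatment. Few neutrophils limit their values: young reload had 48 neutrophils with 37 Cxcr2 UMIs, and Cxcl3 rests on 8 to 83 UMIs in each library.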
